A study of Mus musculus with 8 samples.

Results

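Peroxisome biogenesis and peroxisomal lipid genes were followed across RNA-Seq libraries of mouse brown adipose tissue (BAT). The 31 genes are a list of symbols, drawn up with earlier results of these data known and with no cutoff on a measured value. They comprise peroxins (the Pex genes), membrane transporters, lipid enzymes and catalase. All 31 were found among the 49452 genes of the table, and all are autosomal and protein-coding. The study asked which transcripts follow BAT function under cold and under dietary obesity. It profiled 8 male C57BL/6 mice in 4 groups of 2, with 1 library per mouse as far as the labels say. The cold experiment used mice aged 10 to 12 weeks, kept at 22 °C (replicates 4 and 7) or exposed to 4 °C for 24 h (replicates 2 and 11). The methods of the study give 20 h of cold and then a further 4 h of fasting, at a temperature they do not state. Whether fasting also applied to the mice at 22 °C is not clear from them. The diet experiment used mice aged 32 weeks after 28 weeks on a normal chow diet (NCD, replicates 6 and 8) or a high-fat diet (HFD, replicates 2 and 6). The labels call the control food normal chow, whereas the study speaks of a micronutrient-matched control diet, and which of these was fed is not settled here. No transgene or deletion is named for any of these mice.

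Peroxisomes are organelles bounded by a single membrane that shorten very-long-chain, branched and dicarboxylic fatty acids, carry out alpha-oxidation of branched acids and begin the synthesis of ether lipids. Peroxins import folded enzymes from the cytosol, insert the membrane proteins and shape the organelle for division. Peroxisomal oxidases make hydrogen peroxide, which catalase removes, and the shortened acids leave for the mitochondria, in part as carnitine esters. BAT is rich in peroxisomes, and many of their genes are known targets of the fatty acid receptor PPAR alpha.

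Values are FPKM, which scale fragments by transcript length and by the fragments mapped in a library, so that levels of different genes can be set side by side. The lowest member had 77.2 fragments or more in every library by the size of the steps between low values, an estimate that covers counting error only. Differences are on the scale of log2(FPKM + 1), which understates the change of low genes, and are given with limma's standard error (SE). A gene was called when it changed at least 2-fold with an adjusted p below 0.05. Brown adipocyte markers were present throughout, with a summed level of 7610 to 18524 FPKM over 10 genes, and Ucp1, the uncoupling protein of brown fat, ranged from 699 to 6462 FPKM. Other markers moved with the groups. The 11 skeletal muscle markers summed to 530 and 106 FPKM at 22 °C, 4079 and 1841 FPKM at 4 °C, 543 and 1447 FPKM in NCD and 174 and 14.8 FPKM in HFD mice. The 6 macrophage markers summed to 38.4 to 108 FPKM outside the HFD group and to 189 and 242 FPKM within it. The 6 white adipocyte markers summed to 141 and 80.8 FPKM at 22 °C, 252 and 129 FPKM at 4 °C, 22.5 and 13.2 FPKM in NCD and 165 and 173 FPKM in HFD mice. In the cold they did not move together, with Lep (-2.13) and Nnat (-1.85) lower and Retn (1.27) and Agt (1.60) higher in both 4 °C libraries, none of them called with limma. In bulk tissue, fewer cells of a type and less RNA per cell cannot be told apart.

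The libraries also split within every group. The satellite-repeat gene Gm10800 exceeded 100 FPKM in replicate 4 at 22 °C, replicate 11 at 4 °C, replicate 8 of NCD and replicate 2 of HFD, which are called satellite-high here. It was at most 4.13 FPKM in the other library of each group, called satellite-low. The peroxisomal genes moved with this split, and so did the brown adipocyte markers, whose sum in satellite-low and satellite-high libraries was 8087 and 7610 FPKM at 22 °C, 18524 and 15938 FPKM at 4 °C, 16278 and 9067 FPKM in NCD and 14107 and 9765 FPKM in HFD mice. In the satellite-low library, 21 of the 31 members were higher at 22 °C, 26 at 4 °C, 29 in NCD and 27 in HFD mice. Of all genes, 50.6%, 69.0%, 61.3% and 68.0% were higher in it in the same order, so part of this movement was general. The median difference of the members between the libraries of a group was 0.18, 0.36, 0.65 and 0.46 on the log2 scale in that order, whereas over all genes it lay between 0.0015 and 0.12. Abcd3 went the other way in 3 groups. The autosomal FPKM sum was also larger in the satellite-low library of every group. It was 296785 against 214753 FPKM at 22 °C and 466680 against 252096 FPKM at 4 °C. In the diet experiment it was 441384 against 275965 FPKM in NCD and 458673 against 328495 FPKM in HFD mice. Each comparison is therefore also given within library type, where 1 library stands against 1 and no test applies. The identifiers in the labels further set NCD replicate 6 apart, since its prefix is that of the cold libraries and not that of the other 3 diet libraries.

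Levels spanned a wide range. Scp2, a sterol carrier and thiolase, had the highest mean over the 8 libraries at 364 FPKM, followed by Crat (234 FPKM), Cat (217 FPKM) and Phyh (214 FPKM). Pex19 was the most abundant peroxin at 90.4 FPKM. Acox2 was the lowest member at 0.558 FPKM, and Pex26 (1.49 FPKM) and Pex11g (2.91 FPKM) were the next lowest. Summed over the members, the level was 1293 and 1396 FPKM at 22 °C, 2058 and 1843 FPKM at 4 °C, 2254 and 1462 FPKM in NCD and 1462 and 1903 FPKM in HFD mice. As unscaled sums, the values at 4 °C were thus all higher than those at 22 °C, and the diet groups overlapped. The autosomal FPKM sum varied too, at 214753 and 296785 FPKM at 22 °C and 466680 and 252096 FPKM at 4 °C. In the same order of libraries it was 441384 and 275965 FPKM in NCD and 328495 and 458673 FPKM in HFD mice. The member sums were not divided by it, so neither pattern can be read as one in the members' share of it.

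After 24 h at 4 °C, 1 of the 31 genes was called with limma, Ehhadh, which rose, against 1.44% of the 17470 genes tested (1.22% higher at 4 °C). Counting Ehhadh, 18 of 31 members (58.1%) had both 4 °C libraries above both 22 °C libraries, against a background of 37.9%. Lower in both were 2 of 31, Pex26 and Abcd2, against a background of 20.6%, and 11 overlapped. An unadjusted p under 0.05 was reached by 10 members, 9 of them higher, where 24.5% of all genes reached it. The median difference of the members was 0.39, compared with 0.07 over all genes tested, many of which are low. With a filter of 1 FPKM in 2 libraries it was 0.38 over 30 members and 0.21 over 10937 genes. The members' median was 0.36 between the satellite-high libraries and 0.38 between the satellite-low libraries. Within both library types, 21 members (67.7%) were higher at 4 °C, as were 44.6% of all genes. The median depended on scaling. It was 0.27 after median centring of the libraries, -0.03 after quantile normalization and 0.02 after rescaling to the autosomal sum without Ucp1, where all genes had medians of -0.06, -0.03 and -0.10. The muscle markers were higher in both 4 °C libraries in 11 of 11 cases, with a median difference of 3.37. Of the 10 brown adipocyte markers, 8 were higher and 1 lower in both, with a median difference of 0.58. With all 8 libraries fitted and the muscle marker score as a covariate, the members' median was 0.87 (0.20 over all genes). No member was called and 9 had an unadjusted p under 0.05. In that fit none of the 17470 genes was called, and 2950 had an unadjusted p under 0.05.

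**Figure D1:**
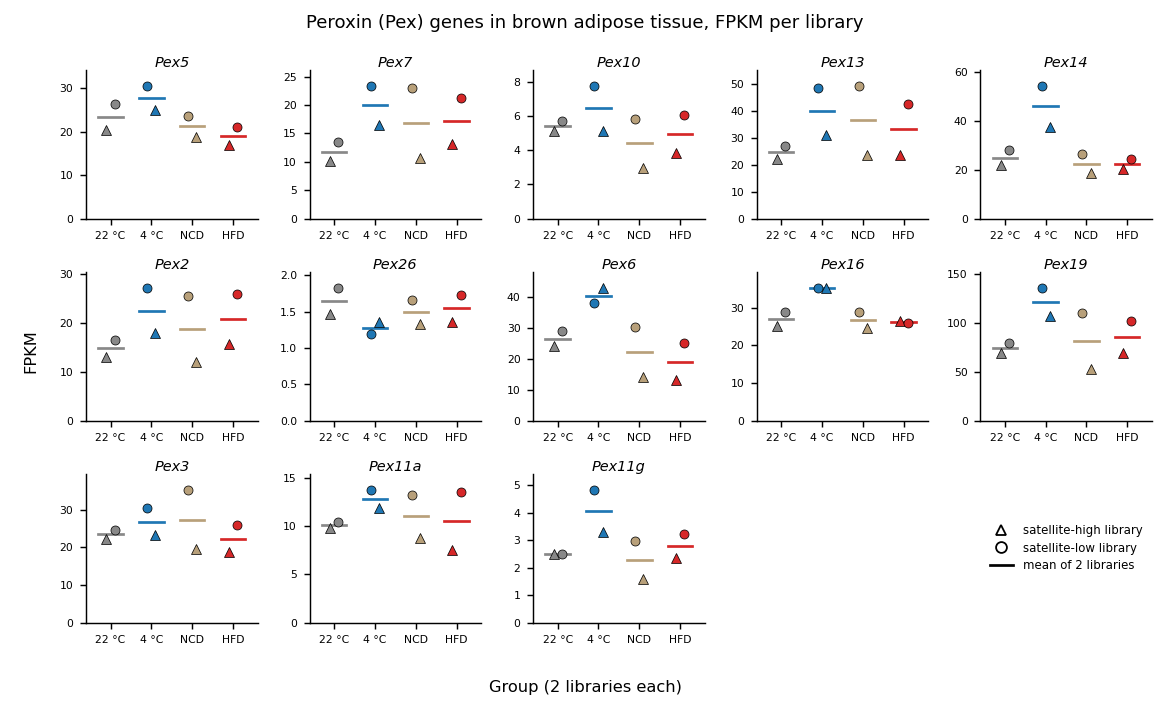
FPKM of the 13 peroxin genes in each of the 8 BAT libraries (vertical axes, from 0) by group (horizontal axes); triangles are satellite-high and circles satellite-low libraries, and lines are means of 2. Pex14 lies at 37.5 and 54.0 FPKM at 4 °C against 21.7 and 27.8 FPKM at 22 °C, while in every panel the NCD and HFD libraries overlap.

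Among the peroxins, 9 of 13 were higher in both 4 °C libraries (69.2%, background 37.9%), 1 was lower (7.69%, background 20.6%) and 3 overlapped. None was called with limma, and 4 had an unadjusted p under 0.05 (24.5% of all genes did). Pex5 and Pex7 are the receptors that carry enzymes with the carboxy-terminal and the amino-terminal targeting signal to the organelle. Pex7 read 10.1 and 13.4 FPKM at 22 °C and 23.3 and 16.6 FPKM at 4 °C, a difference of 0.71 (SE 0.26, adjusted p = 0.179 with limma). The Pex7 groups did not overlap, and the difference was 0.33 after quantile normalization and 0.32 after rescaling to the autosomal sum. For Pex5, which overlapped between the groups, the difference was 0.23 (SE 0.23).

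The docking complex through which loaded receptors enter is built on Pex14 and Pex13. Pex14 showed the largest difference of the peroxins in the main fit. It read 21.7 and 27.8 FPKM at 22 °C and 54.0 and 37.5 FPKM at 4 °C, a difference of 0.85 (SE 0.27, adjusted p = 0.145 with limma). Both 4 °C libraries lay above the 22 °C libraries, and the difference was 0.77 between satellite-high and 0.93 between satellite-low libraries. Exons of Pex14 share 1776 bases with the antisense gene Gm17029, and since it is not stated whether the counting used strand, reads of the pair may not be told apart. Pex13 read 22.2 and 26.8 FPKM at 22 °C and 48.6 and 31.1 FPKM at 4 °C (0.65, SE 0.28, and 0.34 without 4 °C replicate 2). The receptors are then modified by the ubiquitin ligases Pex2 and Pex10 and pulled out by the ATPase Pex6, which Pex26 anchors at the membrane. Pex6 read 24.0 and 28.9 FPKM at 22 °C and 37.9 and 42.8 FPKM at 4 °C, with no overlap (0.59, SE 0.22). Pex2 also lay higher in both 4 °C libraries (0.56, SE 0.27, and 0.27 without replicate 2 at 4 °C), and Pex10 overlapped (0.19, SE 0.24). Quantile normalization gave 0.36 for Pex14, 0.16 for Pex13, 0.12 for Pex6 and 0.14 for Pex2. Rescaling to the autosomal sum gave 0.44, 0.24, 0.19 and 0.16 in that order. With the muscle score as a covariate, Pex6 (1.70), Pex7 (1.60), Pex13 (1.53), Pex19 (1.48) and Pex2 (1.40) lay above Pex14 (1.25). Pex26, the docking partner of Pex6, was at 1.46 and 1.82 FPKM at 22 °C and 1.19 and 1.35 FPKM at 4 °C. Its groups did not overlap, in the opposite direction to Pex6, and the difference was -0.22 (SE 0.15), or -0.12 without 22 °C replicate 7 and 0.10 with the muscle score as a covariate.

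Pex19 is the chaperone that delivers newly made membrane proteins to Pex3, and Pex16 acts with Pex3 in membrane assembly. Pex19 read 68.6 and 79.2 FPKM at 22 °C and 135 and 107 FPKM at 4 °C, a difference of 0.70 (SE 0.25, adjusted p = 0.176 with limma). This difference was 0.18 after quantile normalization and 0.28 after rescaling to the autosomal sum. Pex16 read 25.2 and 28.9 FPKM at 22 °C and 35.2 FPKM in both 4 °C libraries (0.37, SE 0.20). Neither gene overlapped between the groups, but the difference of Pex16 was -0.10 after quantile normalization and -0.037 after rescaling to the autosomal sum. Pex3 overlapped (0.18, SE 0.22). Pex11a and Pex11g, which act in the elongation and division of the organelle, were higher in both 4 °C libraries by 0.31 (SE 0.19) and 0.51 (SE 0.21, and 0.30 without 4 °C replicate 2). The sign of Pex11a turned to -0.026 after quantile normalization and -0.076 after rescaling. For Pex11g these fits gave 0.34 and 0.19. Exons of Pex11g share 1396 bases with the antisense gene Gm44775.

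**Figure D2:**
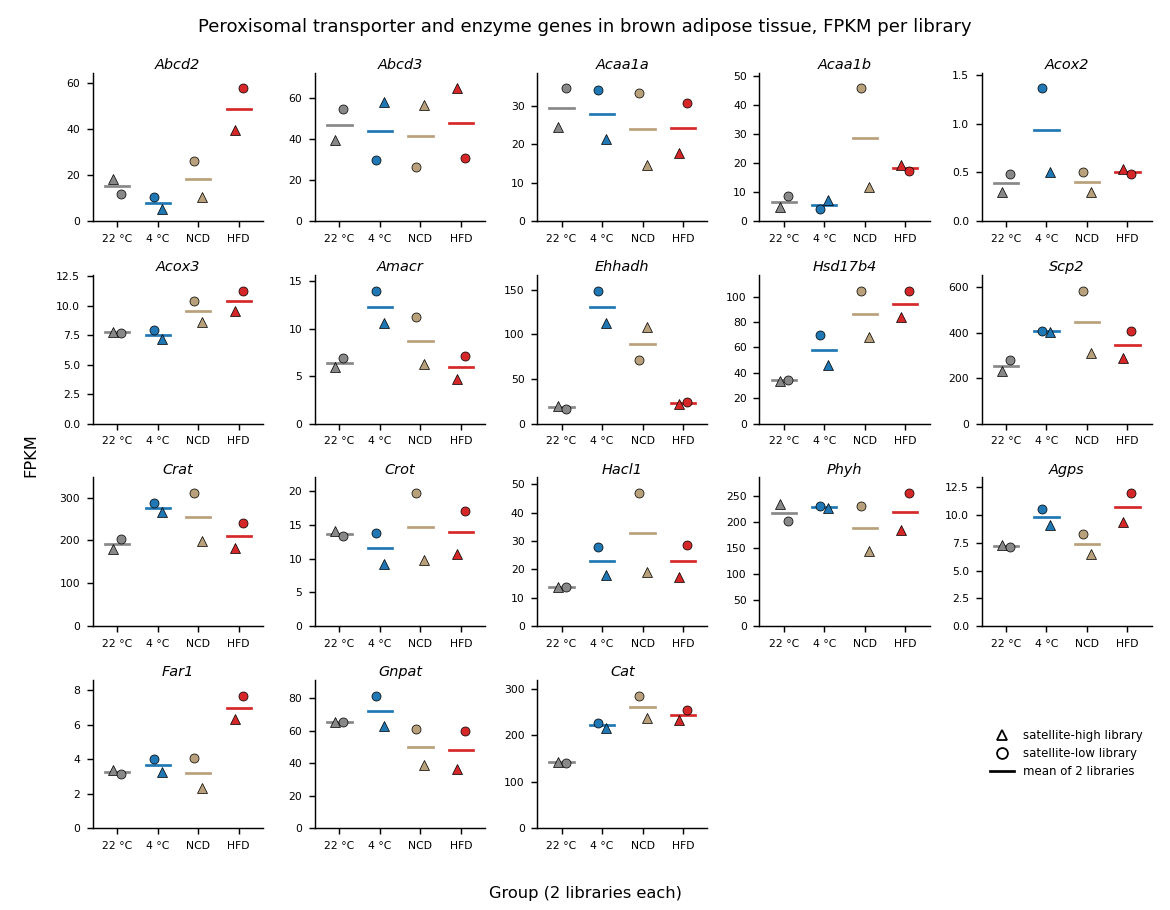
FPKM of the 18 transporter and enzyme genes in each of the 8 BAT libraries (vertical axes, from 0) by group (horizontal axes); triangles are satellite-high and circles satellite-low libraries, and lines are means of 2. Ehhadh is at 113 and 149 FPKM at 4 °C and 71.2 and 108 FPKM in NCD, but between 16.2 and 24.4 FPKM at 22 °C and in HFD.

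Of the 18 transporter and enzyme genes, 9 were higher in both 4 °C libraries (background 37.9%), 1 was lower (background 20.6%) and 8 overlapped. Ehhadh encodes the L-bifunctional enzyme, which carries out the hydration and dehydrogenation steps of peroxisomal beta-oxidation and is needed for dicarboxylic acids. The gene lies at chr16:21761287-21787844 (GRCm38, minus strand), has 1 annotated transcript of 2981 bases and shares no exon with another gene. Ehhadh mRNA read 19.8 and 16.2 FPKM in the 22 °C libraries and 149 and 113 FPKM in the 4 °C libraries. Both cold libraries stood well above both controls, and the group means were 17.99 ± 2.60 and 131 ± 25.2 FPKM (SD, n = 2), a ratio of 7.27. On the log2 scale Ehhadh rose by 2.79 (SE 0.25, adjusted p = 0.0215 with limma). The rise was 2.45 between the satellite-high and 3.12 between the satellite-low libraries. With all 8 libraries fitted and the muscle marker score as a covariate, the difference was 2.44 (adjusted p = 0.131 with limma), where no gene of the table was called. Without 4 °C replicate 2 it was 2.59 (adjusted p = 0.107 with limma), where 1 gene was called in the whole table. The adjusted p was also above the threshold with no filter on low values (0.204 with limma) and with no intensity trend (0.0658).

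The promoter window of Ehhadh is shown because Ehhadh is the member that was called, and that of Cat because 1 stretch of it matched the motif that PPAR and its partner RXR bind. The windows are from RefSeq (GRCm38.p6), from 250 bases before to 50 after the annotated start, 5′ to 3′ on the strand of the gene. They lie at chr16:21787785-21788084 and chr2:103485104-103485403, both on the minus strand. Capitals in Cat mark the match to the direct repeat, which is AGGTCA followed by any 1 base (N) and a further AGGTCA, with 2 mismatches, at -204 to -192 from the start. The exact AGGTCA of Cat, at -204 to -199, is part of that same match.
Ehhadh: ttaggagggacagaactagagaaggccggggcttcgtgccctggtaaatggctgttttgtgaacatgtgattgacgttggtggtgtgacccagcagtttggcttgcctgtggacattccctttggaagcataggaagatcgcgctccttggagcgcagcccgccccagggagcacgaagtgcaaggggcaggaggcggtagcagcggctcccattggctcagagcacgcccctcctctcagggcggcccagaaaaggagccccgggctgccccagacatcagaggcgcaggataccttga
Cat: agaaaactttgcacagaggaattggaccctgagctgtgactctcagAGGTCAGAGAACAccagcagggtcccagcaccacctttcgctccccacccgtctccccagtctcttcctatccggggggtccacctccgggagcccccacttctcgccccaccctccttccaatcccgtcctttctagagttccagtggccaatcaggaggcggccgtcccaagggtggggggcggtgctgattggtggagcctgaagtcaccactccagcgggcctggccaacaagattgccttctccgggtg
The repeat and its shorter element AGGTCA were searched on both strands, and every exact repeat contains the element. Of 32841 promoter windows, 3.86% held the repeat with up to 2 mismatches and 0.0396% held it exactly. Windows were found for 25 of the 31 members. The repeat with up to 2 mismatches was found in Acox2 and Cat, exactly in none, and AGGTCA, which 16.3% of all windows hold, was found in Cat, Pex11g, Phyh and Scp2. The Ehhadh window held neither, which says only that these letters are not in this window.

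The other enzymes of beta-oxidation differed less at 4 °C. Amacr, the racemase that makes branched acids accessible to the oxidases, read 5.94 and 6.87 FPKM at 22 °C and 14.0 and 10.6 FPKM at 4 °C. The Amacr groups did not overlap, and the difference was 0.84 (SE 0.21, adjusted p = 0.0983 with limma), the lowest adjusted p of the members after Ehhadh. Hsd17b4, the D-bifunctional enzyme that works beside Ehhadh on branched and very-long-chain acids, read 33.8 and 34.5 FPKM at 22 °C and 69.5 and 45.7 FPKM at 4 °C (0.71, SE 0.27, and 0.41 without 4 °C replicate 2). Scp2 read 230 and 278 FPKM at 22 °C and 408 and 404 FPKM at 4 °C (0.68, SE 0.28). Neither overlapped, and neither passed the test. Quantile normalization gave 0.54 for Amacr, 0.17 for Hsd17b4 and 0.15 for Scp2. Rescaling to the autosomal sum gave 0.46, 0.29 and 0.26 in that order. Acox2, an oxidase of branched acids and bile acid intermediates, read 0.297 and 0.480 FPKM at 22 °C and 1.36 and 0.506 FPKM at 4 °C (0.45, SE 0.23). Its upper 22 °C and lower 4 °C values nearly met, and the difference was 0.12 without 4 °C replicate 2. The branched-chain oxidase Acox3 (-0.04, SE 0.18) and the thiolases Acaa1a (-0.10, SE 0.31) and Acaa1b (-0.23, SE 0.35) overlapped. The longest reading frames of Acaa1a and Acaa1b are 96.55% identical (1231 of 1275 bases), so the split of reads between this pair is uncertain.

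Catalase libraries lay close together within each group of the cold experiment. Cat read 143 and 141 FPKM at 22 °C and 227 and 216 FPKM at 4 °C. The groups did not overlap, and the difference was 0.63 (SE 0.24, adjusted p = 0.195 with limma). It was 0.087 after quantile normalization and 0.21 after rescaling to the autosomal sum. Hacl1, the lyase of alpha-oxidation, read 13.8 and 13.9 FPKM at 22 °C and 27.9 and 17.98 FPKM at 4 °C (0.66, SE 0.26, and 0.36 without 4 °C replicate 2). Hacl1 was at 0.25 after quantile normalization and 0.26 after rescaling. Exons of Hacl1 share 1540 bases with Gm49387 on the same strand. Phyh, the hydroxylase before it in the pathway, overlapped (0.07, SE 0.26). Crat, the carnitine acetyltransferase of peroxisomes and mitochondria, was higher in both 4 °C libraries (0.53, SE 0.26), with a difference of -0.051 after quantile normalization. Crot, which makes octanoylcarnitine for export, overlapped (-0.26, SE 0.24). Of the ether lipid genes, only Agps was without overlap, at 7.30 and 7.16 FPKM at 22 °C and 10.6 and 9.11 FPKM at 4 °C (0.39, SE 0.18). The difference of Agps was 0.099 after quantile normalization and 0.018 after rescaling to the autosomal sum. Gnpat (0.13, SE 0.24) and Far1 (0.12, SE 0.18) overlapped.

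Abcd2 had the lowest difference of the members at 4 °C. It encodes an ATP-binding cassette transporter that brings very-long-chain and polyunsaturated acyl-CoA into the peroxisome, and lies at chr15:91145884-91191807 (GRCm38, minus strand). Abcd2 mRNA read 18.3 and 11.95 FPKM at 22 °C and 10.3 and 5.38 FPKM at 4 °C. Both cold libraries were below both controls, though 10.3 and 11.95 FPKM are close, and the difference was -0.89 (SE 0.35, adjusted p = 0.204 with limma). It was -1.60 between satellite-high and -0.19 between satellite-low libraries, and -0.48 without 4 °C replicate 11. The related transporter Abcd3, which carries branched and dicarboxylic acids, overlapped, with 0.54 and -0.86 within the library types.

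**Figure D3:**
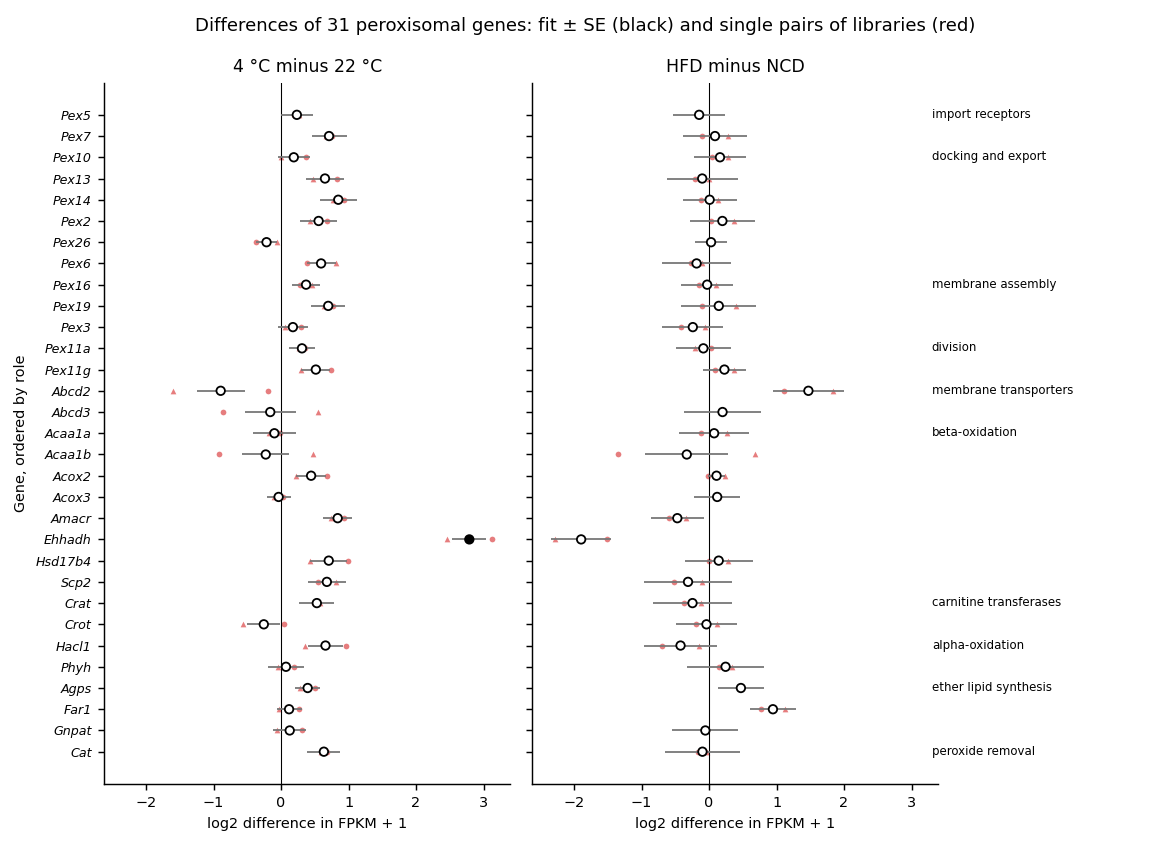
Differences on the log2(FPKM + 1) scale (horizontal axes) of the 31 genes, ordered by role (vertical axis), for 4 °C minus 22 °C and for HFD minus NCD; circles with bars are the limma fit ± SE (filled when called), and red triangles and dots are single pairs of satellite-high and satellite-low libraries. Ehhadh is at 2.79 in the cold and -1.89 under HFD, and Abcd2 at -0.89 and 1.47.

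Under HFD, none of the 31 genes was called with limma, against 0.0684% of 17535 genes tested (0.0513% higher and 0.0171% lower). An unadjusted p under 0.05 was reached by 3 members, Ehhadh, Far1 and Abcd2, where 14.4% of all genes reached it. Abcd2, Agps and Far1 were higher in both HFD libraries than in both NCD libraries (3 of 31, background 39.9%) and Ehhadh was lower in both (1 of 31, background 5.8%). The other 27 members overlapped, including all 13 peroxins, none of which differed by more than its SE. The median difference was 0.01 over the members and 0.18 over all genes tested. With a filter of 1 FPKM in 2 libraries it was -0.01 over 30 members and 0.29 over 10985 genes. The members' median was 0.27 without NCD replicate 6, -0.32 without NCD replicate 8, 0.26 without HFD replicate 2 and -0.16 without HFD replicate 6, so its sign rested on single libraries. Scaling moved the members' median to -0.31 after median centring, -0.21 after quantile normalization and -0.14 after rescaling to the autosomal sum without Ucp1, with medians over all genes of -0.14, -0.01 and 0.10. With the muscle score as a covariate over all 8 libraries it was -0.66 (0.07 over all genes). The NCD libraries lay far apart in many members. Acaa1b read 45.8 and 11.7 FPKM in them, Hacl1 46.9 and 19.1 FPKM and Pex7 22.9 and 10.6 FPKM, in each case higher in the satellite-low replicate 6.

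Ehhadh stood at 71.2 and 108 FPKM in the NCD libraries and at 21.3 and 24.4 FPKM in the HFD libraries. All HFD values lay below all NCD values, and the means were 89.4 ± 25.7 and 22.9 ± 2.13 FPKM (SD, n = 2). The difference was -1.89 (SE 0.45, adjusted p = 0.163 with limma), with -2.28 between satellite-high and -1.51 between satellite-low libraries. Ehhadh was past the threshold with library type as a covariate (adjusted p = 0.00739 with limma) and without NCD replicate 6 (-2.19, adjusted p = 0.0137). It was not past it without NCD replicate 8 (-1.60, adjusted p = 0.162), HFD replicate 2 (-1.80, adjusted p = 0.603) or HFD replicate 6 (-1.99, adjusted p = 0.772). The muscle markers had a median difference of -3.67 in the same comparison, and 10 of 11 were lower in both HFD libraries. Of the 10 brown adipocyte markers, 2 were lower in both, Elovl3 (-3.14) and Cidea (-1.07), 1 was higher and 7 overlapped. Over all genes, 5.8% were lower and 39.9% higher in both. The part of the brown adipocyte markers in the value of Ehhadh was not tested. With all 8 libraries fitted and the muscle score as a covariate, the difference of Ehhadh was -1.53 (adjusted p = 0.332 with limma).

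Abcd2 read 26.3 and 10.4 FPKM in NCD and 39.6 and 57.8 FPKM in HFD mice. Both HFD libraries were above both NCD libraries, with a difference of 1.47 (SE 0.53, adjusted p = 0.274 with limma), and 1.84 and 1.11 within the satellite-high and satellite-low libraries. Abcd2 was past the threshold with library type as a covariate (adjusted p = 0.0110 with limma) and without NCD replicate 6 (2.104, adjusted p = 0.0126). It was not past it with that covariate over all 8 libraries (adjusted p = 0.0718), nor without NCD replicate 8 (0.84, adjusted p = 0.604), HFD replicate 2 (1.74, adjusted p = 0.468) or HFD replicate 6 (1.20, adjusted p = 0.9999). Macrophage markers were higher in both HFD libraries in 6 of 6 cases (median difference 1.62), and 3 of the 5 white adipocyte markers tested were too. The part of these markers in the value of Abcd2 was not tested.

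In ether lipid synthesis, Gnpat and Agps carry out the opening steps inside the peroxisome and Far1 makes the fatty alcohol that Agps uses. Far1 (chr7:113513834-113571511, GRCm38, plus strand) read 4.09 and 2.36 FPKM in NCD and 6.31 and 7.68 FPKM in HFD mice. The groups did not overlap, and the 22 °C and 4 °C libraries, at 3.18 to 4.03 FPKM, were also below both HFD libraries. The difference was 0.95 (SE 0.34, adjusted p = 0.273 with limma). Agps read 8.33 and 6.53 FPKM in NCD and 9.42 and 11.96 FPKM in HFD mice (0.47, SE 0.34). This Agps difference was 0.15 after median centring, 0.16 after quantile normalization and 0.31 to 0.63 when each library was left out. Gnpat overlapped (-0.05, SE 0.49), and whether these 3 genes differed from one another was not tested. The part of the macrophage and white adipocyte markers in these values was not tested either.

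The remaining enzymes overlapped between the diets. Amacr read 11.2 and 6.29 FPKM in NCD and 4.73 and 7.11 FPKM in HFD mice (-0.47, SE 0.39). It was the only overlapping member whose difference exceeded its SE, and single libraries moved it, to -0.097 without NCD replicate 6, -0.84 without NCD replicate 8, -0.22 without HFD replicate 2 and -0.72 without HFD replicate 6. Cat was at 284 and 238 FPKM in NCD and 232 and 254 FPKM in HFD mice (-0.10, SE 0.56), so that all 4 diet libraries were above the 4 °C libraries, in a separate experiment with older mice. Scp2 (-0.31, SE 0.65), Hsd17b4 (0.14, SE 0.50), Phyh (0.24, SE 0.57) and Crat (-0.25, SE 0.58) had errors larger than their differences, and differences of that size were not detectable at this spread between libraries.

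The difference between the cold and the diet comparison was tested in a fit over all 8 libraries. The pairs of groups share no library. Ehhadh was the only member called, with a difference of 4.68 (SE 0.45, adjusted p = 0.0105 with limma), against 1.04% of 18894 genes tested (0.741% in this direction). Within each library type, Ehhadh was higher in the 4 °C than in the 22 °C library and lower in the HFD than in the NCD library. Leaving out either 22 °C library or either HFD library moved the adjusted p to between 0.0560 and 0.0757. The 11 muscle markers differed between the comparisons in the same direction, by 3.77 (Myh1) to 7.55 (Ckm), and Actn3 was called (6.53, adjusted p = 0.0469 with limma). With the muscle marker score as a covariate, a fit added after seeing the data, the difference of Ehhadh was 3.97 (adjusted p = 0.257 with limma) and no gene was called, with 4 members and 2052 of 18894 genes at an unadjusted p under 0.05. For Abcd2 the difference was -2.37 (SE 0.69, adjusted p = 0.135) and for Amacr 1.31 (SE 0.45, adjusted p = 0.184). Neither passed, although with limma both did after quantile normalization (-2.55, adjusted p = 0.0464, and 1.33, adjusted p = 0.0428), Abcd2 did without NCD replicate 6 (-2.998, adjusted p = 0.0497) and Amacr did with library type as a covariate (adjusted p = 0.0482).

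Other genes of the organelle were read from a list of 50 genes of peroxisome biogenesis, transport and metabolism, of which 49 were in the table and 42 were tested. At 4 °C, 2 were called, both higher (1.22% of all genes were), and 24 of 42 were higher and 2 lower in both libraries without overlap (37.9% and 20.6% of all genes). Their median difference of 0.30 lay near that of the members. Slc25a17, the peroxisomal carrier of coenzyme A and other nucleotides, read 19.3 and 27.0 FPKM at 22 °C and 123 and 82.3 FPKM at 4 °C. Its groups did not overlap, and it rose by 2.09 (SE 0.30, adjusted p = 0.0466 with limma). Mlycd, malonyl-CoA decarboxylase, which is found in peroxisomes, mitochondria and cytosol, read 16.5 and 21.7 FPKM at 22 °C and 80.6 and 65.3 FPKM at 4 °C. It rose by 1.88 (SE 0.25, adjusted p = 0.0442 with limma). Both calls are near the threshold and were lost without 4 °C replicate 2 (adjusted p = 0.122 and 0.121) or without 4 °C replicate 11 (adjusted p = 0.05002 and 0.0505), and that of Mlycd also without 22 °C replicate 4 (adjusted p = 0.0574) and with rescaling (adjusted p = 0.0512). They were lost as well with the muscle score as a covariate (2.90 and 2.55, adjusted p = 0.123 and 0.116), with no filter (adjusted p = 0.344 and 0.288) and with no trend (adjusted p = 0.0826 and 0.0751).

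Under HFD, none of the 42 was called with limma, 6 had an unadjusted p under 0.05 (14.4% of all genes), and 3 were higher and 7 lower in both HFD libraries without overlap (7.14% and 16.7% of the list, against 39.9% and 5.8% of all genes). Slc27a2, a very-long-chain acyl-CoA synthetase, read 89.3 and 81.5 FPKM in NCD and 35.4 and 32.3 FPKM in HFD mice. These libraries were close within each group, and the difference was -1.31 (SE 0.43, adjusted p = 0.245 with limma). Xdh, xanthine dehydrogenase, read 13.6 and 9.92 FPKM in NCD and 25.7 and 31.1 FPKM in HFD mice (1.21, SE 0.38). Pxmp2, a channel protein of the peroxisomal membrane, read 7.13 and 6.43 FPKM in NCD and 2.89 and 3.21 FPKM in HFD mice (-0.94, SE 0.30). None of these groups overlapped. With library type as a covariate, Slc27a2 (adjusted p = 0.0104 with limma) and Xdh (adjusted p = 0.00946) were past the threshold.

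**Figure D4:**
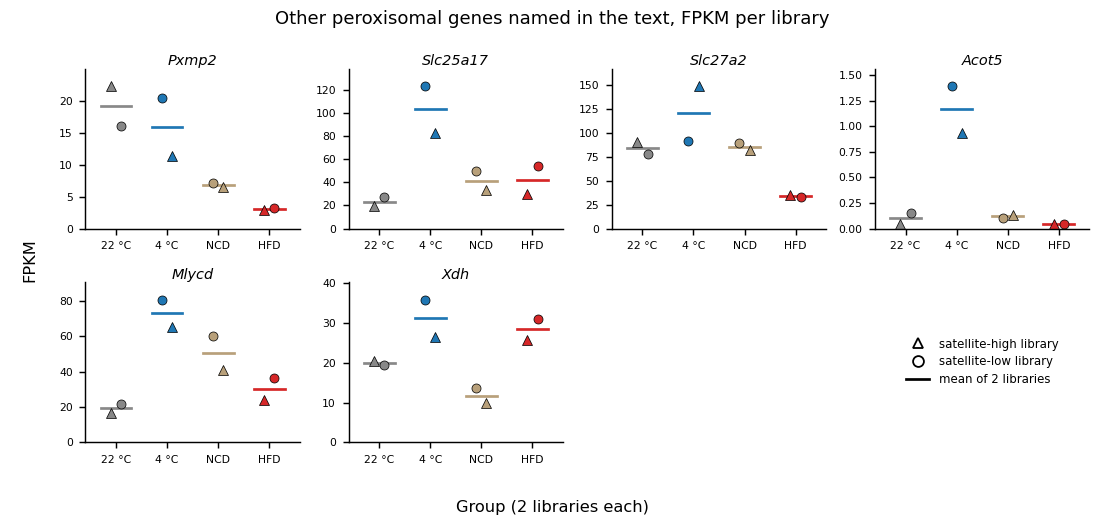
FPKM of 6 other peroxisomal genes in each of the 8 BAT libraries (vertical axes, from 0) by group (horizontal axes); triangles are satellite-high and circles satellite-low libraries, and lines are means of 2. Slc25a17 and Mlycd are highest in the 4 °C libraries, and Slc27a2 and Pxmp2 are lowest in the HFD libraries.

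Of 10 regulators of peroxisomal genes, 1 was called at 4 °C (1.44% of all genes were) and none under HFD (0.0684% of all genes were). At 4 °C, 7 of the 10 were higher and 1 lower in both libraries without overlap (37.9% and 20.6% of all genes). The call was Ppargc1a, a coactivator of PPAR alpha and a driver of mitochondrial biogenesis. Ppargc1a read 10.9 and 10.8 FPKM at 22 °C and 107 and 73.6 FPKM at 4 °C. The groups stood far apart, and it rose by 2.92 (SE 0.25, adjusted p = 0.0208 with limma), a call lost without 4 °C replicate 2 (2.65, adjusted p = 0.0836), with the muscle score as a covariate (2.58, adjusted p = 0.101), with no filter (adjusted p = 0.221) and with no trend (adjusted p = 0.0664). Under HFD its difference was 0.40 (SE 0.32), at 4.39 and 5.86 FPKM in NCD and 7.41 and 6.66 FPKM in HFD mice. That difference was 0.23 to 0.57 when each library was left out and 0.047 to 0.75 over all alternatives. Ppara, which encodes PPAR alpha, read 44.6 and 42.2 FPKM at 22 °C and 53.5 and 33.9 FPKM at 4 °C (-0.03, SE 0.28). It read 60.9 and 48.0 FPKM in NCD and 55.0 and 68.5 FPKM in HFD mice (0.18, SE 0.45), and overlapped in both comparisons.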

How the data were processed

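RNA of BAT was depleted of ribosomal RNA, made into directional libraries and sequenced as paired ends by the authors, who mapped the reads with Tophat2 to GRCm38 and derived the gene level values with Cufflinks from Ensembl models. The Cufflinks version differs between the sources, and 2.2.1 is the version in the submitters' processing notes. The deposited values are FPKM per gene and library, with replicates not pooled. The study tested counts with DESeq2, which were not used here. The autosomal FPKM sum ranged from 214753 to 466680 between libraries, and 3 libraries (both 22 °C libraries and NCD replicate 6) list every X-chromosome gene at 0, so sex-chromosome and mitochondrial genes were left out of the tests.

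From these values, log2(FPKM + 1) was fitted with limma 3.58.1 in R 4.3.3 (eBayes with an intensity trend, two-sided, Benjamini-Hochberg over all genes tested). Genes needed at least 0.1 FPKM in at least 2 libraries of the fit, which all 31 members had. Each comparison used its 4 libraries, and the difference between comparisons used all 8. The labels do not say whether replicates were processed separately after dissection, so p-values measure the spread between these libraries. Depth is not stated. Between 97.4% and 98.4% of low values in 1 library were whole multiples of a step within 0.1 fragment, and 1 fragment on 2000 bases was worth 0.00437 to 0.00603 FPKM. The script was tested on simulated data, with changes and a spread set in advance and not taken from these libraries. That test checks the script, and not how well changes are found at the spread seen here. Positions and exon overlaps are from GENCODE M21 (49109 of 49452 genes matched by identifier) and promoter windows from RefSeq, read with Biopython 1.88 and Python 3.11.15.

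Named were all members, and of the other peroxisomal genes those called in a comparison or, where none was, the 3 with the largest difference. The members and lists were chosen with earlier results of these data known. Alternatives covered the pseudocount, filter, scaling, covariates, trend, fold threshold and leaving out each library. The fit of all 8 libraries with library type as a covariate, and the muscle score as a covariate in the difference between comparisons, were added after seeing the data.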

Additional observations from a re-analysis of the deposited data

Results flagged for a closer look

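The difference between the cold and the diet comparison passed the test for Ehhadh among the members and, among the regulators and other peroxisomal genes, for Ppargc1a and Acot5. Of the cell type markers, Elovl3 (7.73) and Actn3 (6.53) passed in the same direction and Lep (-7.13) and Nnat (-5.79) in the opposite one. For Ehhadh it was 4.68 on the log2 scale (SE 0.45, adjusted p = 0.0105 with limma), with values of 113 and 149 FPKM at 4 °C, 16.2 and 19.8 FPKM at 22 °C, 71.2 and 108 FPKM in NCD and 21.3 and 24.4 FPKM in HFD mice. For the coactivator gene Ppargc1a it was 2.52 (adjusted p = 0.0367 with limma), and without either 22 °C library, 4 °C replicate 2, NCD replicate 8 or either HFD library the adjusted p was 0.0834 to 0.140. The Ppargc1a call was also lost with no filter (adjusted p = 0.136), with rescaling to the autosomal sum (2.28, adjusted p = 0.0669) and with no trend (adjusted p = 0.0564). For Acot5, an acyl-CoA thioesterase of peroxisomes that was named after its values were seen, it was 1.07 (adjusted p = 0.0357 with limma), at 0.935 and 1.40 FPKM at 4 °C and at most 0.155 FPKM in the other 6 libraries. Without either 22 °C library, NCD replicate 8 or either HFD library its adjusted p was 0.0898 to 0.121, and without 4 °C replicate 2 the difference was 0.912 on the log2 scale, under 2-fold. With no filter its adjusted p was 0.180 and with no trend 0.07999. The Ehhadh call was lost without either 22 °C or either HFD library, as given above. With the muscle marker score as a covariate all 3 calls were lost, with Ehhadh at 3.97 (adjusted p = 0.257 with limma), Ppargc1a at 1.83 (adjusted p = 0.444) and Acot5 at 1.03 (adjusted p = 0.372), and the 11 muscle markers themselves differed in the same direction. Acot5 belongs to a cluster of similar thioesterase genes, between which reads may be split.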

How the results depend on the processing

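Libraries could not be paired by replicate number, because the 22 °C and 4 °C groups share no number and the NCD and HFD groups share only number 6. Library type, read from the satellite-repeat level and not from the labels, was fitted as a covariate instead, with the counts given here. Of 29 differences of members that exceeded their error (or, between comparisons, had an unadjusted p under 0.05), 24 kept their direction under every alternative run. Many of these alternatives could not reverse a direction. The filter, trend, fold threshold, sex-chromosome genes, library type and the fit of all 8 libraries leave a difference as it is. Within 1 comparison, a left-out library or another pseudocount cannot reverse a difference whose groups do not overlap. Reversed were, in the cold, Pex11a (-0.026 with quantile normalization, -0.076 with rescaling to the autosomal sum without Ucp1), Pex16 (-0.10 and -0.037), Crat (-0.051 with quantile normalization), Pex26 (0.10 with the muscle score as a covariate) and Crot (0.35 with the muscle score, and -0.52 to 0.0083 when each library was left out). Slc27a2, from the other peroxisomal genes, was at -0.051 in the cold with quantile normalization. Why these turned was not tested.

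Among the members, calls in the cold went from 1 to 0 with no filter (9 with an unadjusted p under 0.05), with no trend (13) and with the muscle score (9), and lay between 0 and 1 when each library was left out. Under HFD the 0 member calls (3 with an unadjusted p under 0.05) became 2 with library type as covariate and 1 with that covariate over all 8 libraries, and lay between 0 and 2 when each library was left out. Between comparisons they went from 1 to 3 with quantile normalization and to 2 with library type, to 0 with the muscle score (4 with an unadjusted p under 0.05), and lay between 0 and 2 with each library left out. The cause was not tested.

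Over all genes, the 252 calls in the cold (213 higher, 39 lower) became 475 with a pseudocount of 0.1, 6 with no filter (45146 genes tested), 529 with a filter of 1 FPKM, 706 with median centring (552 higher, 154 lower), 489 with quantile normalization (312 higher, 177 lower), 516 with rescaling (347 higher, 169 lower), 920 with sex-chromosome and mitochondrial genes kept, 859 with library type, 439 with all 8 libraries, 869 with both, 0 with no trend (4170 with an unadjusted p under 0.05) and 0 with the muscle score (2950). They lay between 1 and 766 when each library was left out, and 1 is the count without 4 °C replicate 2. The 12 calls under HFD became 24 with a filter of 1 FPKM, 744 with library type, 75 with all 8 libraries, 439 with both, 1 with the muscle score, and 0 with no filter, quantile normalization, rescaling, sex-chromosome genes kept or no trend (2832, 2126, 2325, 2533 and 2348 with an unadjusted p under 0.05). They lay between 99 and 727 when each library was left out. The 196 calls between comparisons became 23 with no filter, 459 with median centring, 410 with quantile normalization, 94 with sex-chromosome genes kept, 599 with library type, 55 with no trend and 0 with the muscle score (2052 with an unadjusted p under 0.05), and lay between 6 and 539 with each library left out. With 2 libraries a group, a lone library was assumed to vary like the others. The cause of these shifts was not tested.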
